A study of Drosophila melanogaster with 15 samples.

Results

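Fly midgut progenitor cells labelled as overexpressing an activated form of Notch were compared, gene by gene, with progenitor cells labelled as knocked down for the repressor Tramtrack (ttk). The comparison sets 3 RNA-seq libraries labelled Nicd OE, for overexpression of the intracellular domain of Notch, against 3 libraries labelled ttk-RNAi. A gene entered it when its FPKM, its fragments scaled to exon length and library size, was at least 1 in at least 3 of these 6 libraries, which held for 7300 of the 17558 genes in the deposited table. All groups came from midguts of adult Drosophila melanogaster on day 7, and about 10000 cells that carried green fluorescent protein were sorted per sample. The genotype is given as Nicd overexpressed, as ttk-RNAi or, for the 3 control libraries named Ctrl, as wild type. The labels name no driver, RNAi line or construct, and no control that carries a driver alone. Nothing in them ties a replicate to its own flies or its own sort, so the spread between replicates may be purely technical. The p-values here rest on that spread within groups over all 15 libraries of the series, and not on the 6 compared libraries alone. Besides Ctrl, the further libraries were labelled dpn OE and seq&Nicd OE, and their levels are not shown here.

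Notch is a receptor that is cut when it binds a ligand such as Delta, and its released intracellular domain joins Suppressor of Hairless in the nucleus to switch on target genes, first of all those of the Enhancer of split (E(spl)) complex. In the fly midgut, stem cells present Delta to their daughters: strong Notch signalling directs a daughter towards the absorptive enterocyte, which makes digestive enzymes, while weak signalling leaves the route open to the enteroendocrine cell, which secretes peptide hormones. Ttk is a zinc finger repressor that acts in the same lineage to hold back proneural genes, the transcription factors that start the endocrine and neural programmes.

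The 2 groups differed in depth and in the share of reads that fell on genes. The reads behind each library, estimated from the steps between low FPKM values in units of 1e6 reads, were 27.0 to 34.1 in Nicd OE, 51.1 to 56.0 in libraries labelled ttk-RNAi and 25.1 to 38.4 in Ctrl. Of these, 33.7% to 48.5% were assigned to genes in Nicd OE, 62.9% to 65.6% in libraries labelled ttk-RNAi and 56.4% to 62.5% in Ctrl. FPKM is relative to all reads of a library, so the lower assigned share goes with lower FPKM of nearly any gene in Nicd OE. The median FPKM over the tested genes was 2.88, 3.45 and 4.62 in the Nicd OE libraries, against 7.01, 7.10 and 7.03 in libraries labelled ttk-RNAi. For this reason each difference was computed from the deposited FPKM and again after all columns were scaled to a common median, and genes are called higher or lower below where both computations called them in that direction. Nicd OE replicate 3 stood apart from replicates 1 and 2: it had the highest assigned share of the 3, 48.5% against 33.7% and 34.3%, and it lay at the opposite end of the second principal component from replicate 1, a component that held 5.55% of the variance. Across genes, log2(FPKM + 1) correlated at 0.972 to 0.987 between Nicd OE libraries and at 0.994 to 0.996 between libraries labelled ttk-RNAi.

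The genes named in the labels did not follow them in full. The gene ttk (3R:31713867-31735392, plus strand) encodes the repressor targeted by the RNAi, and it had 12.2, 10.9 and 19.1 FPKM in Nicd OE, 113, 87.05 and 100.1 FPKM in libraries labelled ttk-RNAi and 43.6, 11.1 and 36.1 FPKM in Ctrl. The libraries labelled ttk-RNAi thus held more ttk RNA than all 6 others, and they are called by their label here. Reads that come from a hairpin construct and reads of the native transcript were not told apart. The Notch gene N (X:3134870-3172221, plus strand) had 17.2, 19.1 and 29.1 FPKM in Nicd OE, 27.98, 32.7 and 29.5 FPKM in libraries labelled ttk-RNAi and 70.9, 41.9 and 76.3 FPKM in Ctrl. Its Nicd OE libraries lay below all Ctrl libraries, so no added N RNA was seen over Ctrl, and the name Nicd OE stands here for libraries so labelled. Its difference from libraries labelled ttk-RNAi was not called by limma (adjusted p = 0.158, and 0.0729 with a common median).

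Most tested genes differed between the groups, and in the deposited FPKM most of those were lower in Nicd OE. limma with Benjamini-Hochberg adjustment called 4820 of 7300 genes (66.0%) at an adjusted p under 0.05, of which 548 were higher (7.51% of the tested genes) and 4272 lower (58.5%) in Nicd OE. With a common median 1974 were higher (27.0%) and 2101 lower (28.8%), so the share of higher genes among the called ones moved to 48.4%, against 11.4% in the deposited FPKM. All 548 genes higher in the deposited FPKM were also higher with a common median (7.51%), and all 2101 lower with a common median were also lower in the deposited FPKM (28.8%). Those 2649 genes are the ones called higher or lower below. Counts within gene lists are to be read against these shares, 7.51% higher and 28.8% lower. A further 2168 genes were lower in the deposited FPKM alone, 1423 were higher with a common median alone, and 3 were called in opposite directions. Without Nicd OE replicate 3, 467 genes were higher and 4593 lower in the deposited FPKM, and 1850 higher and 2057 lower with a common median. The median log2 difference of all genes was -0.77 in the deposited FPKM and -0.03 with a common median. Differences are Nicd OE minus libraries labelled ttk-RNAi on the log2(FPKM + 1) scale throughout, which understates the change of genes with low values.

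**Figure D1:**
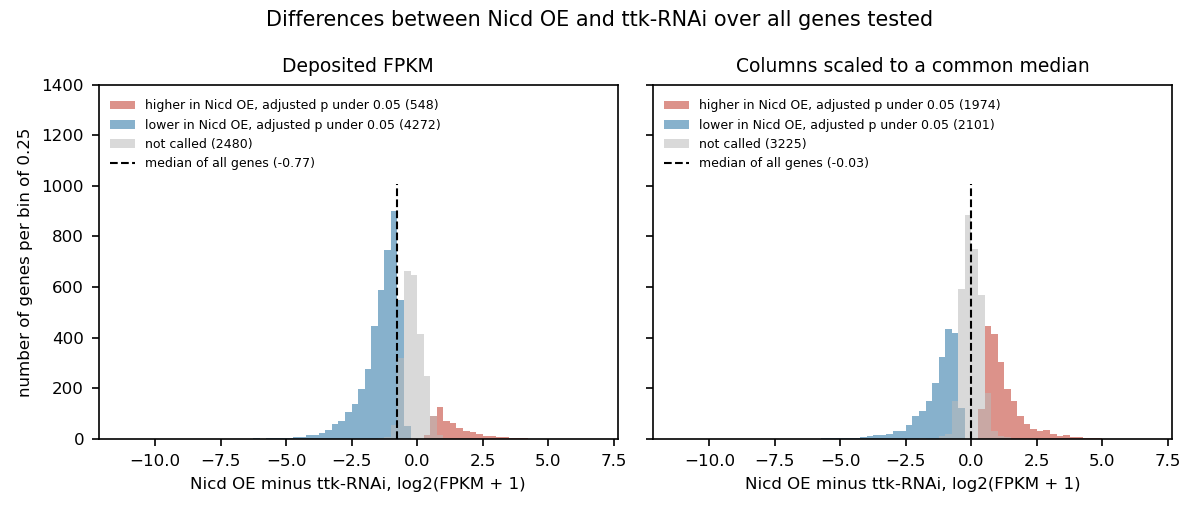
Histograms of the log2(FPKM + 1) difference, Nicd OE minus ttk-RNAi, for the 7300 genes tested (x axis, bins of 0.25; y axis, number of genes), from the deposited FPKM on the left and with columns scaled to a common median on the right. Red bars are genes called higher, blue bars genes called lower and grey bars genes not called at an adjusted p of 0.05; the dashed line is the median of all genes, which lies at -0.77 on the left and at -0.03 on the right.

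The libraries of the 2 groups did not overlap for 77.4% of the tested genes. Of the genes called with both scalings, 543 of 548 higher and 2101 of 2101 lower genes had no overlap in the deposited FPKM, and 314 higher and 1949 lower genes differed by at least 1 on the log2 scale. At 1 FPKM, 157 genes reached that level in all Nicd OE libraries and in no library labelled ttk-RNAi, and 1085 the other way round; such genes passed the filter through 1 group, and their direction was set by it. The mean of Ctrl lay between both groups for 403 of the 548 higher and 1289 of the 2101 lower genes, on log2 values with a common median. It was nearer to Nicd OE than to libraries labelled ttk-RNAi for 297 of the higher and 1418 of the lower genes. By chromosome, the share of tested genes that were higher ran between 4.97% on X and 8.78% on 3R, and the share that were lower between 25.7% on 4 and 30.0% on X. In RNA of sorted cells, fewer cells of a type and less RNA per cell cannot be told apart.

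Of the 12 genes with the largest positive differences, 5 were serine protease genes. Jon99Cii and Jon99Ciii, neighbouring genes of the Jonah family of gut serine proteases, headed them. Jon99Cii (3R:29923754-29924615, minus strand) had 80.4, 104.2 and 31.3 FPKM in Nicd OE, against 0.2495, 0.126 and 0.705 FPKM in libraries labelled ttk-RNAi, a log2 difference of 5.61 (6.31 with a common median). Jon99Ciii had 87.1, 80.1 and 54.5 FPKM in Nicd OE and 0.631, 0.335 and 1.61 FPKM in libraries labelled ttk-RNAi, a log2 difference of 5.36 (6.13 with a common median). The 2 genes are near-identical copies, and reads could be split between them, so their values are not independent. The serine protease genes yip7, betaTry and Jon74E differed by 4.42, 4.202 and 4.03. In all 5 protease genes Nicd OE replicate 3 was the lowest of its group and replicate 3 labelled ttk-RNAi the highest of its group. The genes known by number alone, CG12374, CG5107, CG18404 and CG15629, differed by 5.27, 4.89, 4.64 and 4.26. CG15629 was low in both other groups shown, with 23.9, 19.1 and 18.4 FPKM in Nicd OE, 0.0683, 0.189 and 0.0998 FPKM in libraries labelled ttk-RNAi and 0.2002, 0.111 and 0.258 FPKM in Ctrl. Jon99Cii, CG15629 and CG18404 passed the filter through Nicd OE alone, so their direction was set by the filter.

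Of the 12, 3 were of another kind. E(spl)m3-HLH, a Notch target, is described with its complex below. MtnA (3R:9783407-9784370, minus strand), a metallothionein that binds heavy metals, had 85.4, 139 and 290.1 FPKM in Nicd OE and 7.21, 7.08 and 8.99 FPKM in libraries labelled ttk-RNAi, a log2 difference of 4.12 (5.05 with a common median). Cyp4p2 (2R:9237512-9239831, plus strand), a cytochrome P450, had 15.3, 14.5 and 19.2 FPKM in Nicd OE and 0.05502, 0.0203 and 0.0905 FPKM in libraries labelled ttk-RNAi, and its Ctrl libraries had 31.6, 16.3 and 27.8 FPKM. Cyp4p2 thus lay near its Ctrl level in Nicd OE and close to 0 in libraries labelled ttk-RNAi, with a log2 difference of 4.03 (4.66 with a common median). It passed the filter through Nicd OE alone, so its direction was set by the filter.

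The 12 genes with the largest negative differences had at least 60.4 FPKM in every library labelled ttk-RNAi and at most 47.3 FPKM in any Nicd OE library, 11 of them under 10 FPKM. Listericin (2R:11241745-11242194, minus strand), which encodes an antibacterial protein, had 0.0796, 0.0824 and 2.87 FPKM in Nicd OE, 3887, 2667 and 3453 FPKM in libraries labelled ttk-RNAi and 1.39, 1.503 and 3.49 FPKM in Ctrl. Its log2 difference was -10.96 (-10.502 with a common median), with an adjusted p of 3.91e-12. Its estimated reads were 46 over the 3 Nicd OE libraries and 242790 over the 3 libraries labelled ttk-RNAi. sna (2L:15476593-15478260, minus strand), the Snail-family zinc finger repressor, had 0.752, 0.489 and 2.13 FPKM in Nicd OE, 666, 487 and 562 FPKM in libraries labelled ttk-RNAi and 4.22, 7.23 and 8.72 FPKM in Ctrl, a log2 difference of -8.14 (-7.49 with a common median). dpn (2R:8228971-8232330, minus strand), the bHLH repressor Deadpan of neural stem cells, had 0.774, 1.75 and 3.42 FPKM in Nicd OE, 268, 311 and 290.001 FPKM in libraries labelled ttk-RNAi and 2.91, 1.45 and 2.75 FPKM in Ctrl. Its log2 difference was -6.704 (-5.97 with a common median), and 59.3% of its exon bases are shared with an antisense RNA gene, so reads of the pair could be assigned to either.

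In 8 of the other 9, Ctrl also lay far below the libraries labelled ttk-RNAi. chinmo (2L:1651258-1704682, plus strand), a BTB zinc finger factor of early neural timing, had 0.116, 0.118 and 0.321 FPKM in Nicd OE and 80.4, 71.1 and 74.2 FPKM in libraries labelled ttk-RNAi, a log2 difference of -6.01 (-5.58 with a common median). stai, which encodes the microtubule regulator stathmin, had 1.32, 2.01 and 3.24 FPKM in Nicd OE and 217, 335 and 294 FPKM in libraries labelled ttk-RNAi. rst, an immunoglobulin-type adhesion protein, had 1.37, 0.8602 and 1.82 FPKM in Nicd OE and 182, 161 and 158 FPKM in libraries labelled ttk-RNAi. The chitinase-like growth factor gene Idgf4, with -6.92, the non-coding RNA genes lncRNA:CR44272, with -6.89, and lncRNA:CR30009, with -8.56, and the genes CG13460 and CG12523, with -9.24 and -6.01, were further members. Of these genes, chinmo, Idgf4 and CG12523 passed the filter through the libraries labelled ttk-RNAi alone, so their direction was set by the filter. lncRNA:CR44272 was the 1 with sizeable levels in Nicd OE, at 30.7, 15.1 and 47.3 FPKM in Nicd OE, 3584, 3444 and 3329 FPKM in libraries labelled ttk-RNAi and 19.9, 24.2 and 29.8 FPKM in Ctrl. CG45061 was the exception in Ctrl: it had 3.49, 2.63 and 8.22 FPKM in Nicd OE, 427, 264 and 371 FPKM in libraries labelled ttk-RNAi and 573, 1363 and 616 FPKM in Ctrl, so of these 3 groups it was low in Nicd OE.

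**Figure D2:**
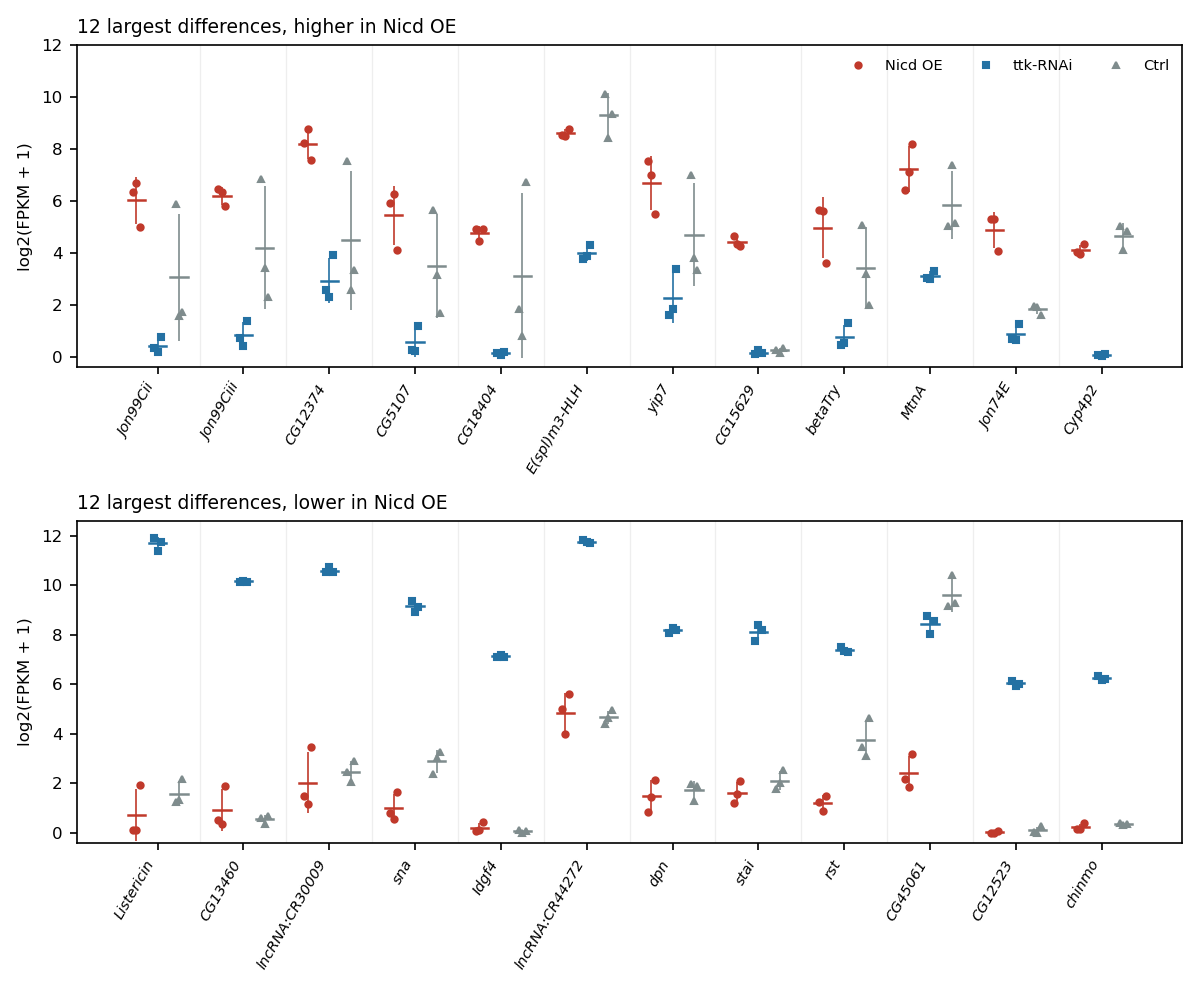
log2(FPKM + 1) in each library (points; Nicd OE left, ttk-RNAi middle, Ctrl right for each gene) of the 12 genes with the largest positive differences (top) and the 12 with the largest negative differences (bottom). Horizontal bars are means and vertical bars SD of 3 libraries; in the lower panel all genes but CG45061 have Ctrl well below ttk-RNAi, while in the upper panel the Ctrl libraries spread widely for the protease genes.

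The Notch response genes did not move as a block: some were higher in Nicd OE and others lower. Of 17 listed, 11 passed the filter, and 5 were higher and 3 lower, with a median log2 difference of -0.14 (0.67 with a common median). Of all tested genes, 7.51% were higher and 28.8% lower, so the lower share was near that of all genes. E(spl)m2-BFM passed the filter through Nicd OE alone and Hey through the libraries labelled ttk-RNAi alone, so that their direction was set by the filter. E(spl)m3-HLH (3R:26021823-26023127, plus strand), a bHLH repressor, had 378, 368 and 440.4 FPKM in Nicd OE and 12.8, 13.7 and 18.8 FPKM in libraries labelled ttk-RNAi, with a log2 difference of 4.64 (5.59 with a common median) and an adjusted p of 2.06e-08. Ctrl had 1122, 345 and 659 FPKM, which overlaps the Nicd OE libraries. E(spl)mbeta-HLH, another bHLH repressor, had 135, 139 and 161 FPKM in Nicd OE and 52.8, 47.05 and 53.4 FPKM in libraries labelled ttk-RNAi, a log2 difference of 1.48 (2.45 with a common median). E(spl)malpha-BFM, of the Bearded family of small Notch regulators, had 153, 167 and 243 FPKM in Nicd OE and 76.01, 84.5 and 92.6 FPKM in libraries labelled ttk-RNAi, a log2 difference of 1.12 (2.09 with a common median). Both were highest in Ctrl, with 1042, 482 and 463 FPKM for E(spl)mbeta-HLH and 2823, 2887 and 1715 FPKM for E(spl)malpha-BFM. E(spl)m2-BFM, with 2.47, 1.94 and 4.66 FPKM in Nicd OE and 0.368, 0.472 and 0.896 FPKM in libraries labelled ttk-RNAi, and the protease inhibitor gene Kaz-m1, with 6.52, 6.503 and 9.69 FPKM in Nicd OE and 2.04, 2.25 and 2.41 FPKM in libraries labelled ttk-RNAi, were the other higher members. Of the exon bases of Kaz-m1, 57.01% are shared with another gene.

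The genes at the other end of the complex were lower in Nicd OE. E(spl)m8-HLH (3R:26040240-26041008, plus strand) had 0.186, 0.434 and 1.49 FPKM in Nicd OE, 18.9, 18.7 and 20.49 FPKM in libraries labelled ttk-RNAi and 10.3, 19.97 and 9.22 FPKM in Ctrl, a log2 difference of -3.65 (-3.13 with a common median). E(spl)m7-HLH had 8.36, 6.34 and 9.54 FPKM in Nicd OE and 30.1, 22.6 and 29.1 FPKM in libraries labelled ttk-RNAi, a log2 difference of -1.64 (-0.74 with a common median) (adjusted p = 0.0393 with a common median). Hey, a related bHLH gene on another chromosome arm, was lower as well, with 0.0212, 0.1099 and 0.174 FPKM in Nicd OE and 6.097, 6.33 and 5.79 FPKM in libraries labelled ttk-RNAi, a log2 difference of -2.68 (-2.35 with a common median). E(spl)mgamma-HLH had 60.1, 61.8 and 75.9 FPKM in Nicd OE, 133, 129 and 121 FPKM in libraries labelled ttk-RNAi and 5.29, 6.99 and 3.92 FPKM in Ctrl, so both groups lay far above Ctrl. Its difference of -0.95 in the deposited FPKM was gone with a common median (0.018). E(spl)mdelta-HLH differed by -0.65 (-0.197 with a common median) and was called in the deposited FPKM alone, and E(spl)m6-BFM by -0.14 (0.67 with a common median) with no call. Of the 6 listed genes that were not tested, Tom, of the Bearded family, had 0, 0.0385 and 0.0305 FPKM in Nicd OE and 0.975, 1.01 and 1.15 FPKM in libraries labelled ttk-RNAi, and 3 relatives of it were at or near 0. E(spl)m4-BFM and E(spl)m5-HLH stayed under 1 FPKM in all 6 libraries, although E(spl)m5-HLH had 0.975, 0.547 and 0.865 FPKM in Nicd OE and 0.0222, 0.102 and 0.0608 FPKM in libraries labelled ttk-RNAi.

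In chromosomal order, the higher members thus sat side by side. E(spl)mbeta-HLH, E(spl)malpha-BFM, Kaz-m1, E(spl)m2-BFM and E(spl)m3-HLH follow each other on 3R, and E(spl)m7-HLH, E(spl)m8-HLH and the corepressor gene gro, all lower, lie together at the far end. The lowest start among the members is 25997621, of E(spl)mdelta-HLH, and the highest end is 26041008, of E(spl)m8-HLH. This order is a description of 1 locus and was not tested.

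**Figure D3:**
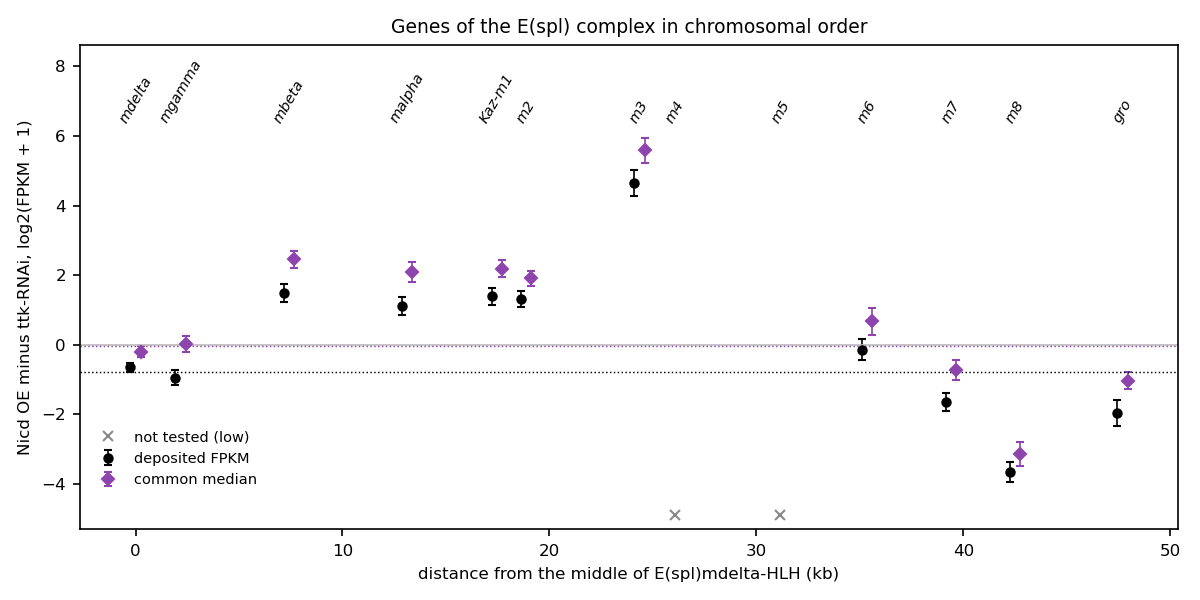
Difference Nicd OE minus ttk-RNAi in log2(FPKM + 1) (y axis) of the genes of the E(spl) complex and of gro, placed by distance from the middle of E(spl)mdelta-HLH in kb (x axis). Circles are from the deposited FPKM and diamonds with a common median, error bars are SE, dotted lines are the medians of all genes, and crosses mark 2 genes too low to test. The 5 genes called higher form a run between E(spl)mbeta-HLH and E(spl)m3-HLH, and E(spl)m7-HLH, E(spl)m8-HLH and gro lie below 0 with both scalings.

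Few genes of the Notch pathway itself were called in 1 direction with both scalings. Of 27 in the table, 24 passed the filter, and 0 were higher and 3 lower, with a median of -0.57 (0.18 with a common median), near that of all genes. With a common median 7 were higher and 3 lower. neur (3R:9020348-9039471, minus strand), the ubiquitin ligase that activates Delta in the sending cell, had 5.21, 6.05 and 10.6 FPKM in Nicd OE and 65.6, 60.1 and 64.3 FPKM in libraries labelled ttk-RNAi, a log2 difference of -3.01 (-2.11 with a common median). gro, the corepressor used by the E(spl) bHLH proteins, had 9.91, 10.9 and 21.5 FPKM in Nicd OE and 55.8, 51.1 and 57.2 FPKM in libraries labelled ttk-RNAi, a log2 difference of -1.96 (-1.03 with a common median). The third was Nle, a WD-repeat gene first found as a modifier of Notch, with -0.84 (-0.39 with a common median). It passed the filter through the libraries labelled ttk-RNAi alone, so its direction was set by the filter. The ligand gene Delta had 1.15, 1.85 and 5.35 FPKM in Nicd OE, 4.23, 3.94 and 5.05 FPKM in libraries labelled ttk-RNAi and 161, 14.8 and 48.4 FPKM in Ctrl. Its 2 groups overlapped and were not called apart (adjusted p = 0.319), while all 6 libraries lay below Ctrl. The transcription factor gene Su(H) and the Notch-cutting protease gene kuz were lower in the deposited FPKM alone, with -0.86 (-0.18 with a common median) for Su(H) and -1.26 (-0.3001 with a common median) for kuz. fng, the glycosyltransferase that tunes ligand choice, was higher with a common median alone, with 0.63 (1.48 with a common median).

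The other members were called with 1 scaling or with neither. Genes lower in the deposited FPKM alone were the ligand-sorting ubiquitin ligase gene mib1 (-0.92 (-0.22 with a common median)), the receptor-trafficking gene spdo (-1.14 (-0.71 with a common median)), the Notch ubiquitin ligase genes Su(dx) (-0.74 (0.11 with a common median)) and Nedd4 (-0.95 (-0.049 with a common median)), the glycosyltransferase gene rumi (-0.801 (-0.29 with a common median)) and the corepressor gene CtBP (-0.97 (-0.007 with a common median)). Genes higher with a common median alone were the co-activator gene mam (-0.31 (0.48 with a common median)), the Notch inhibitor gene numb (-0.065 (0.84 with a common median)), dx (0.026 (0.65 with a common median)), the fucosyltransferase gene O-fut1 (-0.15 (0.75 with a common median)), and Nct (-0.24 (0.53 with a common median)) and aph-1 (-0.052 (0.87 with a common median)) of the gamma-secretase that frees the intracellular domain. pen-2 (-0.203 (0.25 with a common median)), the corepressor adaptor gene H (-0.41 (0.45 with a common median)) and the endocytosis genes aux (-0.32 (0.48 with a common median)) and lqf (-0.43 (0.44 with a common median)) were not called with either. The ligand gene Ser, Kul and sano were too low to test, and Ser had 0.0123, 0.00636 and 0.0201 FPKM in Nicd OE and 0.604, 0.406 and 0.542 FPKM in libraries labelled ttk-RNAi.

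The gene ttk was lower in Nicd OE, and so were some of the genes whose products mark Ttk for destruction. ttk itself differed by -2.78 (-1.84 with a common median), with an adjusted p of 1.16e-05. Among its 4 listed partners, 3 passed the filter and 2 of these were lower, against 28.8% of all tested genes. phyl, the adaptor that brings Ttk to its ubiquitin ligase, had 0.0195, 0.121 and 0.511 FPKM in Nicd OE and 2.701, 2.42 and 2.68 FPKM in libraries labelled ttk-RNAi, a log2 difference of -1.58 (-1.28 with a common median). ebi, a further part of that machinery, had 1.799, 1.95 and 6.29 FPKM in Nicd OE and 12.7, 10.1 and 10.5 FPKM in libraries labelled ttk-RNAi, a log2 difference of -1.62 (-0.85 with a common median). Of these, phyl passed the filter through the libraries labelled ttk-RNAi alone, so its direction was set by the filter. sina, the ligase gene, differed by -1.09 (-0.24 with a common median) and was called in the deposited FPKM alone. Its relative sinah stayed under 1 FPKM in all 6 libraries, with 0.0247, 0.0511 and 0.0202 FPKM in Nicd OE and 0.701, 0.761 and 0.863 FPKM in libraries labelled ttk-RNAi.

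Neural stem cell genes formed one of the lowest lists. Of 30 listed neuroblast identity and timing factors, 16 passed the filter, and 11 were lower and 1 higher, with a median of -2.02 (-1.29 with a common median). Of the 11, 6 passed the filter through the libraries labelled ttk-RNAi alone, with under 1 FPKM in every Nicd OE library. The direction of these 6, chinmo, wor, scrt and ind among them, was set by the filter, and they enter the list median. Besides sna, dpn and chinmo, wor, another Snail-family factor, had 0.435, 0.384 and 0.872 FPKM in Nicd OE, 30.9, 27.9 and 26.8 FPKM in libraries labelled ttk-RNAi and 1.35, 0.734 and 1.64 FPKM in Ctrl, a log2 difference of -4.25 (-3.69 with a common median). scrt, the Scratch zinc finger factor, had 0.134, 0.1798 and 0.307 FPKM in Nicd OE and 12.8, 12.4 and 13.5 FPKM in libraries labelled ttk-RNAi. ind, a homeodomain factor of the embryonic nerve cord, had 0.127, 0 and 0.104 FPKM in Nicd OE and 16.6, 17.1 and 13.6 FPKM in libraries labelled ttk-RNAi. klu, a zinc finger factor that marks enteroblasts in the gut and acts in neuroblasts, had 10.5, 12.9 and 21.005 FPKM in Nicd OE, 128, 116 and 123 FPKM in libraries labelled ttk-RNAi and 40.5, 21.8 and 44.7 FPKM in Ctrl, a log2 difference of -3.02 (-2.08 with a common median). mira, the adaptor of fate determinants in dividing neuroblasts, and vnd differed by -2.35 (-1.52 with a common median) for mira and -1.68 (-0.83 with a common median) for vnd. The low genes ham and cas, both under 2 FPKM in all 6 libraries, differed by -1.32 and -1.004. Eip93F, the ecdysone-induced factor of late timing, was the member that was higher, with 19.04, 15.6 and 35.2 FPKM in Nicd OE, 7.03, 7.22 and 9.68 FPKM in libraries labelled ttk-RNAi and 56.8, 53.7 and 70.3 FPKM in Ctrl. Syp, an RNA-binding protein of late timing, was higher with a common median alone, with 0.56 (1.53 with a common median).

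Proneural and endocrine fate factors were lower too, 6 of the 9 that passed the filter, and 0 were higher, and 4 of the 6 passed it through the libraries labelled ttk-RNAi alone. The direction of these 4, sc and dimm among them, was set by the filter. sc, the proneural bHLH factor Scute, had 0.0498, 0.0516 and 0.122 FPKM in Nicd OE, 3.05, 3.02 and 3.32 FPKM in libraries labelled ttk-RNAi and 12.5, 3.38 and 6.08 FPKM in Ctrl, a log2 difference of -1.94 (-1.65 with a common median). pros, the homeodomain factor that defines enteroendocrine cells, had 1.27, 1.496 and 2.03 FPKM in Nicd OE, 8.41, 7.57 and 8.25 FPKM in libraries labelled ttk-RNAi and 6.757, 8.704 and 11.2 FPKM in Ctrl, a log2 difference of -1.81 (-1.101 with a common median). dimm, a bHLH factor of peptide-secreting cells, had 0.413, 0.506 and 0.713 FPKM in Nicd OE and 7.92, 7.62 and 7.68 FPKM in libraries labelled ttk-RNAi, a log2 difference of -2.51 (-1.96 with a common median). The Pax factor gene sv and the homeodomain factor gene Ptx1 differed by -2.58 (-2.17 with a common median) for sv and -1.87 (-0.94 with a common median) for Ptx1. tap, a bHLH factor of endocrine cells, had 1.77, 2.87 and 2.87 FPKM in Nicd OE, 1.37, 1.74 and 1.49 FPKM in libraries labelled ttk-RNAi and 21.5, 68.1 and 31.8 FPKM in Ctrl. It was higher with a common median alone (adjusted p = 0.0316), and both groups lay far below Ctrl.

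Genes of neuronal differentiation were lower in 12 and higher in 2 of the 19 that passed the filter, out of 25 in the table, and 6 of the 12 passed it through the libraries labelled ttk-RNAi alone. The direction of these 6, onecut among them, was set by the filter. Appl, the fly relative of the amyloid precursor protein, had 8.18, 8.96 and 10.4 FPKM in Nicd OE and 139.7, 122 and 134 FPKM in libraries labelled ttk-RNAi, a log2 difference of -3.71 (-2.79 with a common median). nrv3, a neuronal sodium pump subunit, and Nrg, the adhesion protein neuroglian, differed by -2.74 (-1.78 with a common median) for nrv3 and -2.46 (-1.49 with a common median) for Nrg. onecut, a homeodomain factor, had 0.2604, 0.369 and 0.392 FPKM in Nicd OE and 6.62, 7.38 and 6.71 FPKM in libraries labelled ttk-RNAi. The pan-neuronal marker elav differed by -1.29 (-0.51 with a common median), and 34.2% of its exon bases are shared with another gene. unc-104, the kinesin that carries synaptic vesicle precursors, went the other way, with 33.04, 43.8 and 49.6 FPKM in Nicd OE, 10.7, 10.1 and 10.8 FPKM in libraries labelled ttk-RNAi and 3.28, 2.48 and 4.55 FPKM in Ctrl. Its log2 difference was 1.88 (2.81 with a common median), with an adjusted p of 3.67e-05. The second higher member was the zinc finger gene jim, with 0.78 (1.58 with a common median), a call that was lost without Nicd OE replicate 3.

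In the machinery of asymmetric division, 3 of 15 members were lower and 1 higher with both scalings, against 28.8% lower and 7.51% higher of all tested genes. cnn, the centrosome protein, had 0.9195, 1.38 and 1.61 FPKM in Nicd OE and 12.9, 14.5 and 14.1 FPKM in libraries labelled ttk-RNAi, a log2 difference of -2.698 (-2.003 with a common median). stau, an RNA-binding protein carried by mira, differed by -1.78 (-0.93 with a common median). The polarity gene l(2)gl and the regulator gene loco were lower in the deposited FPKM alone, with -1.17 (-0.22 with a common median) for l(2)gl and -1.203 (-0.301 with a common median) for loco. The spindle protein gene mud differed by -1.53 (-1.24 with a common median), but 98.6% of its exon bases are shared with another gene. The kinesin gene Khc-73 was higher, with 3.92, 5.64 and 4.596 FPKM in Nicd OE and 1.82, 2.66 and 2.42 FPKM in libraries labelled ttk-RNAi, a log2 difference of 0.79 (1.56 with a common median).

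The gut peptide hormones split between higher and lower members. Of 14 in the table, 11 passed the filter, and 5 were higher and 2 lower, with a median of 0.28 (1.12 with a common median). Orcokinin (2R:23946959-23949076, minus strand) had 776, 769.9 and 919 FPKM in Nicd OE, 74.4, 113 and 115.4 FPKM in libraries labelled ttk-RNAi and 2633, 2902 and 2958 FPKM in Ctrl, a log2 difference of 3.03 (4.01 with a common median). Tk, the tachykinin gene, had 704, 706 and 583 FPKM in Nicd OE, 106, 103 and 123 FPKM in libraries labelled ttk-RNAi and 581, 1354 and 2748 FPKM in Ctrl, a log2 difference of 2.57 (3.55 with a common median). AstC, allatostatin C, had 722, 931 and 1613 FPKM in Nicd OE, 294, 212 and 288 FPKM in libraries labelled ttk-RNAi and 2604, 1355 and 3715 FPKM in Ctrl, a log2 difference of 1.97 (2.94 with a common median). In all 3 the libraries labelled ttk-RNAi were the lowest of the 3 groups.

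CCHa2 was higher in Nicd OE than in both other groups, with 73.3, 69.3 and 79.3 FPKM in Nicd OE, 10.4, 9.81 and 20.3 FPKM in libraries labelled ttk-RNAi and 19.4, 19.5 and 14.1 FPKM in Ctrl, a log2 difference of 2.44 (3.38 with a common median). NPF, neuropeptide F, had 786, 703 and 1323 FPKM in Nicd OE, 417, 382 and 390.1 FPKM in libraries labelled ttk-RNAi and 6827, 55989 and 26068 FPKM in Ctrl. Its log2 difference was 1.18 (2.16 with a common median), just past the threshold (adjusted p = 0.04898), and the call was lost when any 1 of the 6 libraries was left out. Nicd OE and the libraries labelled ttk-RNAi did not overlap for NPF, and the spread of its Ctrl libraries enters this p-value. Dh31 and ITP were lower: Dh31, a diuretic hormone, had 2.52, 1.09 and 4.96 FPKM in Nicd OE and 43.2, 51.8 and 51.3 FPKM in libraries labelled ttk-RNAi, a log2 difference of -3.81 (-3.03 with a common median). ITP, the ion transport peptide gene, had 5.09, 5.19 and 8.58 FPKM in Nicd OE and 15.9, 20.8 and 18.7 FPKM in libraries labelled ttk-RNAi. AstA had 4.102, 1.12 and 38.99 FPKM in Nicd OE and 20.6, 19.3 and 22.8 FPKM in libraries labelled ttk-RNAi, so that Nicd OE replicate 3 lay above and replicates 1 and 2 below the other group, and it was not called. Mip was lower in the deposited FPKM alone (-1.52 (-1.03 with a common median)), and CCHa1 (0.16 (1.12 with a common median)) and Gpb5 (0.28 (0.97 with a common median)) were higher with a common median alone. Of the 3 hormones too low to test, CCAP had 0.459, 0.683 and 0.588 FPKM in Nicd OE and 0.282, 0.318 and 0.2003 FPKM in libraries labelled ttk-RNAi, sNPF had 0, 0.0606 and 0.02399 FPKM in Nicd OE and 0.543, 0.6502 and 0.767 FPKM in libraries labelled ttk-RNAi, and the third was at 0 throughout.

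Among genes for vesicle release and peptide processing, 6 of 19 were higher and 5 lower, with a median of -0.58 (0.31 with a common median). The lower share of 26.3% was near the 28.8% of all tested genes, of which 7.51% were higher. amon, the convertase that cuts hormone precursors, had 10.6, 14.96 and 15.9 FPKM in Nicd OE, 2.61, 2.69 and 3.29 FPKM in libraries labelled ttk-RNAi and 45.4, 58.4 and 71.7 FPKM in Ctrl, a log2 difference of 1.93 (2.77 with a common median). svr, a carboxypeptidase that trims them, had 31.3, 40.97 and 45.8 FPKM in Nicd OE and 17.97, 21.6 and 20.2 FPKM in libraries labelled ttk-RNAi. Rab3, a GTPase of secretory vesicles, was higher as well, with 0.85 (1.55 with a common median). Pal2, Sytbeta and Rph were also higher, with 0.802, 0.78 and 0.704, but each lost its call when 1 of several libraries was left out. The release genes Syt4, Cadps, Snap25, Syt7 and unc-13 were lower. Of these 5, 2 passed the filter through the libraries labelled ttk-RNAi alone, Snap25 among them, so their direction was set by the filter. Syt4, a synaptotagmin, had 1.13, 1.398 and 2.36 FPKM in Nicd OE, 45.2, 47.9 and 45.3 FPKM in libraries labelled ttk-RNAi and 1.05, 0.808 and 3.47 FPKM in Ctrl, a log2 difference of -4.19 (-3.45 with a common median). Cadps, which primes dense-core vesicles, differed by -2.82 (-2.15 with a common median), and the membrane fusion gene Snap25 by -1.89 (-1.396 with a common median).

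**Figure D4:**
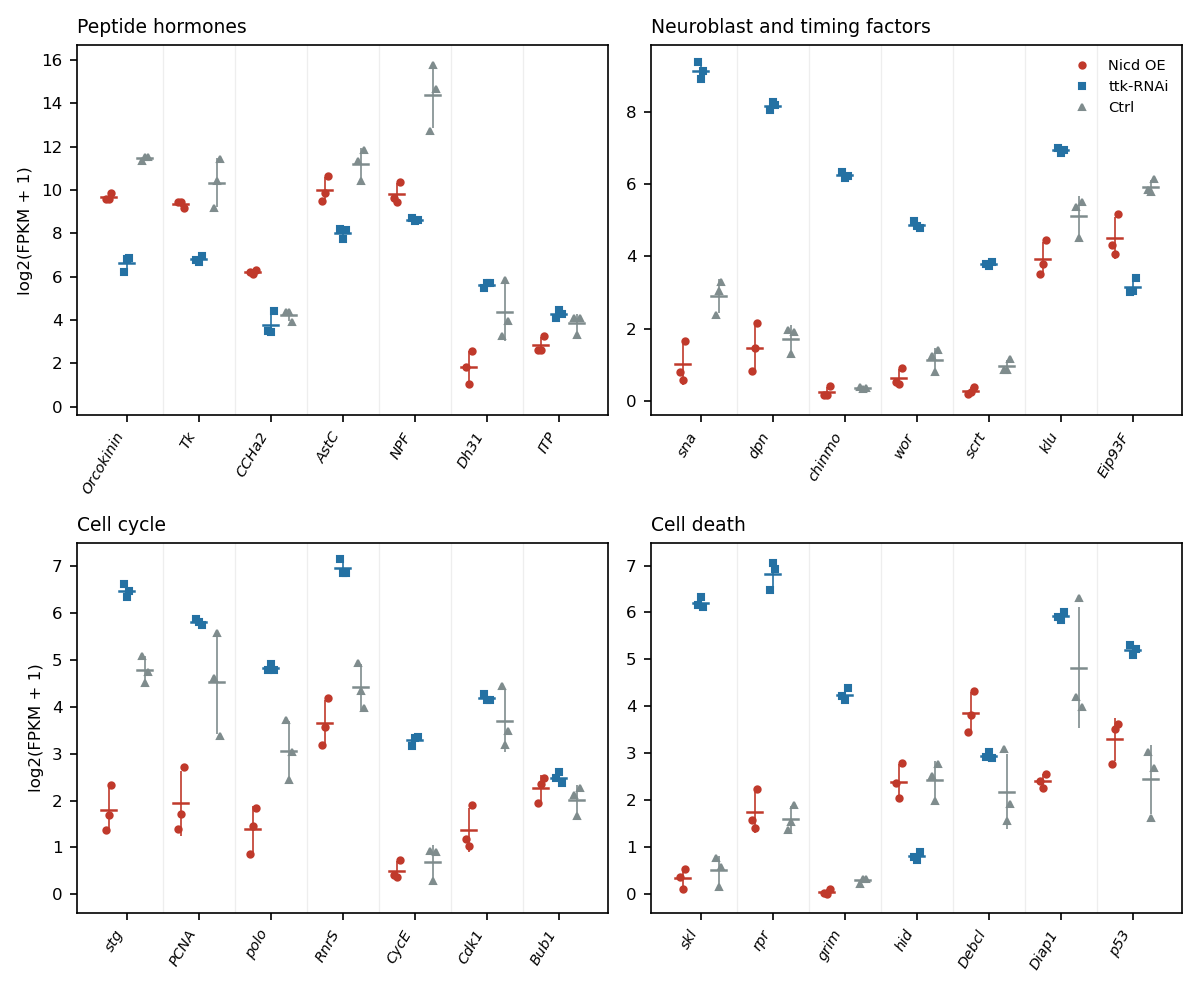
log2(FPKM + 1) in each library (points; Nicd OE left, ttk-RNAi middle, Ctrl right for each gene) of members of 4 gene lists, with the mean (horizontal bar) and SD (vertical bar) of 3 libraries. The 5 hormones on the left are higher and Dh31 and ITP lower in Nicd OE than in ttk-RNAi. The neuroblast factors other than Eip93F and the cell cycle genes other than Bub1 are lower. Of the death genes near each other on 3L, hid lies opposite to skl, rpr and grim.

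Digestive enzyme genes were the list with the highest median in Nicd OE. Of 60 in the table, 28 passed the filter, and 20 were higher and 2 lower, with a median of 2.44 (3.19 with a common median). Their summed level was 449 to 962 FPKM in Nicd OE, 55.02 to 118 FPKM in libraries labelled ttk-RNAi and 198 to 1259 FPKM in Ctrl, so Ctrl spread more widely than Nicd OE. In 17 of the 28, Nicd OE replicate 3 was the lowest of its group and replicate 3 labelled ttk-RNAi the highest of its group, which held for 2.62% of all tested genes. With 1 or the other of these libraries left out, 20 were called higher in the deposited FPKM. Of the 20, 6 passed the filter through Nicd OE alone. alphaTry, a trypsin gene, had 70.9, 68.3 and 27.5 FPKM in Nicd OE and 3.34, 3.36 and 10.1 FPKM in libraries labelled ttk-RNAi, a log2 difference of 3.14 (4.04 with a common median). epsilonTry, its neighbour, differed by 3.42 (4.19 with a common median). The trypsin genes of this cluster are close copies, so their values are uncertain one by one. The amylase copies Amy-p and Amy-d had 9.54, 12.2 and 4.77 FPKM for Amy-p in Nicd OE and 0.785, 0.748 and 2.36 FPKM in libraries labelled ttk-RNAi, with log2 differences of 2.09 for Amy-p and 2.68 for Amy-d. Jon65Aiii and Jon65Aiv differed by 2.59 (3.52 with a common median) for Jon65Aiii and 2.39 (3.34 with a common median) for Jon65Aiv.

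Amyrel and etaTry were the members that were lower. Both passed the filter through the libraries labelled ttk-RNAi alone, so that their direction was set by the filter. Amyrel, an amylase-related gene, had 0.0231, 0.0239 and 0.01895 FPKM in Nicd OE and 2.03, 1.84 and 1.79 FPKM in libraries labelled ttk-RNAi, a log2 difference of -1.498 (-1.27 with a common median). etaTry had 0.315, 0.5699 and 0.644 FPKM in Nicd OE and 3.37, 2.22 and 2.77 FPKM in libraries labelled ttk-RNAi, a log2 difference of -1.32 (-0.85 with a common median). The lysozyme genes LysP (-2.32 (-1.95 with a common median)) and LysX (-0.87 (-0.089 with a common median)) were lower in the deposited FPKM alone. Jon25Biii was higher, with 2.704, but its groups overlapped and 5 of the 6 omissions of a library removed the call: it had 32.2, 0.852 and 14.98 FPKM in Nicd OE and 0.236, 0.153 and 1.49 FPKM in libraries labelled ttk-RNAi.

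Transcription factors of gut progenitors and enterocytes included 6 of 22 lower and 2 higher members, against 28.8% lower and 7.51% higher of all tested genes. chn, the zinc finger factor Charlatan, had 0.739, 0.978 and 1.52 FPKM in Nicd OE, 26.8, 25.7 and 27.1 FPKM in libraries labelled ttk-RNAi and 15.4, 13.02 and 20.1 FPKM in Ctrl, a log2 difference of -3.74 (-3.08 with a common median). bab2 differed by -2.38 (-1.902 with a common median), the GATA factor gene srp by -1.997 (-1.35 with a common median) and the homeodomain factor gene hth by -1.36 (-0.93 with a common median). peb, the enteroblast zinc finger factor Hindsight, had 17.6, 16.4 and 38.8 FPKM in Nicd OE, 95.5, 91.2 and 96.4 FPKM in libraries labelled ttk-RNAi and 345, 108 and 219.97 FPKM in Ctrl, a log2 difference of -2.03 (-1.08 with a common median). Pdp1, a bZIP factor, and Stat92E, the transcription factor of JAK/STAT signalling, were higher. Pdp1 had 89.7, 89.1 and 154 FPKM in Nicd OE and 50.3, 48.5 and 52.8 FPKM in libraries labelled ttk-RNAi, and Stat92E had 29.6, 31.2 and 32.7 FPKM in Nicd OE and 15.6, 15.96 and 16.7 FPKM in libraries labelled ttk-RNAi. Their log2 differences were 1.07 (2.04 with a common median) for Pdp1 and 0.91 (1.85 with a common median) for Stat92E. Sox21a, a factor of enteroblast differentiation, and Sox100B were lower in the deposited FPKM alone, with -1.88 (-0.94 with a common median) for Sox21a and -0.73 (0.24 with a common median) for Sox100B. cad, the homeodomain factor of the posterior gut, was higher with a common median alone (0.19 (1.11 with a common median)).

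Most cell cycle genes that were tested were lower in Nicd OE. Of 50 in the table, 43 passed the filter, and 31 were lower and 0 higher, with a median of -1.59 (-1.102 with a common median). Of the 31, 13 passed it through the libraries labelled ttk-RNAi alone. The direction of these 13, CycE and cid among them, was set by the filter. stg (3R:29251826-29255800, minus strand), the Cdc25 phosphatase that starts mitosis, had 1.59, 2.21 and 4.04 FPKM in Nicd OE, 97.2, 80.6 and 87.9 FPKM in libraries labelled ttk-RNAi and 33.1, 21.7 and 25.7 FPKM in Ctrl, a log2 difference of -4.68 (-3.89 with a common median). PCNA, the replication clamp, had 1.64, 2.25 and 5.54 FPKM in Nicd OE and 57.3, 55.3 and 53.04 FPKM in libraries labelled ttk-RNAi, a log2 difference of -3.87 (-3.08 with a common median). The mitotic kinase gene polo differed by -3.45 (-2.73 with a common median) and RnrS, of nucleotide synthesis, by -3.31 (-2.38 with a common median). CycE, the cyclin of S phase entry, had 0.319, 0.287 and 0.657 FPKM in Nicd OE, 8.02, 9.16 and 9.18 FPKM in libraries labelled ttk-RNAi and 0.883, 0.221 and 0.855 FPKM in Ctrl. The centromeric histone gene cid and the mitotic kinase gene Cdk1 differed by -3.19 and -2.82. In all of these but CycE the 3 Nicd OE libraries also lay below the Ctrl mean. The other 12 were not called lower with both scalings. Bub1, of the spindle checkpoint, was 1 of them, with -0.22 (0.57 with a common median): it was not called in the deposited FPKM and was higher with a common median.

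Signals of growth and stress included lower and higher members. Of 28 genes of the JAK/STAT, EGFR and JNK pathways that passed the filter, 11 were lower and 2 higher with both scalings, and 15 were neither. The cytokine gene upd2 had 0.652, 0.524 and 1.65 FPKM in Nicd OE, 40.9, 43.1 and 50.6 FPKM in libraries labelled ttk-RNAi and 259.7, 59.9 and 103 FPKM in Ctrl, a log2 difference of -4.602 (-3.97 with a common median). upd3, a cytokine of the damaged gut, had 11.9, 20.8 and 46.4 FPKM in Nicd OE and 269, 333 and 304 FPKM in libraries labelled ttk-RNAi, a log2 difference of -3.67 (-2.72 with a common median). rho, the protease that releases EGFR ligands, had 5.47, 6.34 and 10.5 FPKM in Nicd OE and 151, 135 and 155 FPKM in libraries labelled ttk-RNAi, a log2 difference of -4.18 (-3.27 with a common median). kek1, an EGFR feedback inhibitor, the ligand gene vn and the Fos gene kay differed by -3.36, -3.14 and -2.67. aos, a secreted EGFR inhibitor, was higher, with 21.8, 23.8 and 28.4 FPKM in Nicd OE, 4.07, 4.22 and 4.097 FPKM in libraries labelled ttk-RNAi and 34.9, 5.44 and 17.1 FPKM in Ctrl, a log2 difference of 2.32 (3.201 with a common median). Stat92E was the second higher member.

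Heat shock genes were lower in 6 and higher in 1 of 17 tested, against 28.8% lower and 7.51% higher of all tested genes. Hsp23, a small chaperone, had 69.1, 48.4 and 64.8 FPKM in Nicd OE, 584, 570.2 and 609 FPKM in libraries labelled ttk-RNAi and 1196, 2063 and 958 FPKM in Ctrl, a log2 difference of -3.27 (-2.301 with a common median). Hsp68, Hsp26, Hsp67Bc and Hsp70Bc differed by -3.11, -2.75, -2.43 and -3.09, and Hsp70Bc is 1 of several near-identical copies. Hsf, their transcriptional activator, was higher, with 8.51, 10.02 and 8.98 FPKM in Nicd OE and 4.65, 5.47 and 5.42 FPKM in libraries labelled ttk-RNAi, a log2 difference of 0.72 (1.58 with a common median). The Hsf call was lost without Nicd OE replicate 2 and without replicate 1 labelled ttk-RNAi.

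The cell death genes that lie near each other on 3L differed in direction, which for 3 of the 4 was set by the filter. skl (3L:18438561-18439942, minus strand), rpr (3L:18397535-18398435, minus strand) and grim (3L:18302719-18304417, minus strand), which encode killers that block the inhibitor of apoptosis Diap1, were low in Nicd OE and high in libraries labelled ttk-RNAi. rpr had 1.99, 1.65 and 3.71 FPKM in Nicd OE, 88.7, 132 and 121 FPKM in libraries labelled ttk-RNAi and 1.56, 1.899 and 2.74 FPKM in Ctrl, a log2 difference of -5.08 (-4.29 with a common median). skl had 0.285, 0.0805 and 0.446 FPKM in Nicd OE and 70.6, 79.8 and 68.6 FPKM in libraries labelled ttk-RNAi, a log2 difference of -5.87 (-5.397 with a common median). grim had 0.0211, 0 and 0.0864 FPKM in Nicd OE and 17.6, 16.5 and 19.99 FPKM in libraries labelled ttk-RNAi, and 75.9% of its exon bases are shared with another gene. hid (3L:18167745-18185641, minus strand), of the same family and locus, was higher, with 4.13, 3.11 and 5.89 FPKM in Nicd OE, 0.72995, 0.643 and 0.876 FPKM in libraries labelled ttk-RNAi and 4.74, 2.94 and 5.82 FPKM in Ctrl. Its log2 difference was 1.59 (2.26 with a common median), with an adjusted p of 1.60e-04. Ctrl overlapped Nicd OE for skl, rpr and hid, and was under 1 FPKM for grim. Diap1 differed by -3.505 (-2.63 with a common median) and p53 by -1.901 (-0.99 with a common median), both lower, and Debcl, a Bcl-2 family gene, was higher with 0.92 (1.81 with a common median), a call lost without replicate 3 of either group. In all, 5 of 13 tested death genes were lower and 2 higher, against 28.8% lower and 7.51% higher of all tested genes. Of the 5, 2 (skl and grim) passed the filter through the libraries labelled ttk-RNAi alone. Of the 2 higher, hid passed it through Nicd OE alone.

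Of 17 immune genes that passed the filter, 4 were lower and 1 higher, against 28.8% lower and 7.51% higher of all tested genes. After Listericin, the diptericin gene DptA had 0.289, 0 and 0 FPKM in Nicd OE and 2.33, 1.604 and 4.97 FPKM in libraries labelled ttk-RNAi, a log2 difference of -1.78 (-1.45 with a common median). Of the 4 lower genes, 2 passed the filter through the libraries labelled ttk-RNAi alone, DptA among them, so their direction was set by the filter. The recognition protein gene PGRP-SD differed by -1.75 (-0.79 with a common median), and imd, the adaptor of the Imd pathway, by -1.55 (-1.005 with a common median). PGRP-SC2, an amidase that dampens the response, was higher, with 14.8, 17.0001 and 4.49 FPKM in Nicd OE and 0.446, 0.364 and 2.44 FPKM in libraries labelled ttk-RNAi, a call that was lost when any of 4 libraries was left out. PGRP-LB, another such amidase, was lower in the deposited FPKM alone (-1.99 (-1.03 with a common median)).

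Among junction and adhesion genes 6 of 20 were lower and 2 higher, near the shares of all tested genes, 28.8% and 7.51%. The tetraspanin gene Tsp42Ee had 96.3, 55.5 and 111 FPKM in Nicd OE, 2029, 1678 and 1775 FPKM in libraries labelled ttk-RNAi and 27.5, 40.3 and 37.1 FPKM in Ctrl, a log2 difference of -4.42 (-3.45 with a common median). arm, the beta-catenin of adherens junctions, differed by -2.71 (-1.78 with a common median), and Fas3 and cora, of septate junctions, by -2.44 (-1.58 with a common median) for Fas3 and -2.13 (-1.19 with a common median) for cora. sinu, a claudin, was higher, with 1.805, 3.65 and 3.68 FPKM in Nicd OE and 0.909, 1.199 and 0.822 FPKM in libraries labelled ttk-RNAi. LanB2, a laminin, was higher by 0.64, a call that 4 of the 6 omissions of a library removed. Of 11 imaginal disc growth factors and chitin deacetylases in the table, 4 passed the filter, all through the libraries labelled ttk-RNAi alone, so that their direction was set by the filter. They were Idgf4, Idgf3, Idgf5 and the deacetylase gene verm, and verm had 0.0303, 0 and 0.0744 FPKM in Nicd OE and 10.9, 10.1 and 10.1 FPKM in libraries labelled ttk-RNAi.

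The large complexes of the cell differed in how they stood to the median of all genes. Of 80 tested genes of the cytosolic ribosome, 5 were higher and 2 lower in both computations, with a median of -0.18 in the deposited FPKM. With a common median, 44 of them were higher and 2 lower, with a median of 0.7998. RpL36A had 1149, 872 and 1239.6 FPKM in Nicd OE and 518, 548 and 499.6 FPKM in libraries labelled ttk-RNAi, a log2 difference of 1.04 (2.02 with a common median), and RpL39, RpLP2 and RpL35A differed by 0.94, 0.83 and 0.86. The 2 lower members were low paralogs: RpS19b differed by -1.32 (-1.04 with a common median), and RpS10a was listed at 0 in the 3 Nicd OE and 3 Ctrl libraries and had 1.26, 1.497 and 1.805 FPKM in libraries labelled ttk-RNAi. Both passed the filter through the libraries labelled ttk-RNAi alone, so their direction was set by the filter. RpL41 (-1.75 (-0.78 with a common median)) and RpL13 (-1.32 (-0.35 with a common median)) were lower in the deposited FPKM alone. Mitochondrial ribosomal proteins were lower in 24 of 70 (34.3%), near the 28.8% of all tested genes, and higher in 0, against 7.51%. Their median was -1.06 (-0.34 with a common median). mRpL21 had 3.55, 5.05 and 8.498 FPKM in Nicd OE and 43.1, 37.1 and 35.99 FPKM in libraries labelled ttk-RNAi, and mRpL28, mRpL52 and mRpS35 differed by -2.07, -1.98 and -1.97.

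Proteasome subunits were lower in 20 of 32 tested and higher in 0, with a median of -1.53 (-0.67 with a common median). Prosalpha6, of the core, had 13.7, 14.8 and 21.9 FPKM in Nicd OE and 81.6, 80.6 and 84.4 FPKM in libraries labelled ttk-RNAi, and the regulatory subunit genes Rpn13, Rpn7 and Rpn6 differed by -2.14, -1.99 and -1.87. Nuclear genes of oxidative phosphorylation were lower in 6 of 66 (9.09%), fewer than the 28.8% of all tested genes, and higher in 0, against 7.51%. With a common median 13 were higher and 6 lower. The lower ones included COX7A (-1.82 (-0.85 with a common median)), its neighbour COX7AL (-1.76 (-1.504 with a common median)) and ND-B14.7 (-1.699 (-0.77 with a common median)). Of the 6, 3 passed the filter through the libraries labelled ttk-RNAi alone, COX7AL among them, so their direction was set by the filter. COX7B was lower in the deposited FPKM alone (-1.66 (-0.69 with a common median)). Their median was -0.7001 (0.24 with a common median). Of 13 tested glycolysis genes 3 were higher and 0 lower. Gapdh2 had 94.2, 105 and 136 FPKM in Nicd OE and 44.1, 44.7 and 45.3 FPKM in libraries labelled ttk-RNAi, a log2 difference of 1.29 (2.25 with a common median). Tpi differed by 1.06 (1.97 with a common median) and Ald1 by 0.71 (1.68 with a common median), and the call of Ald1 was lost when any 1 of the 6 libraries was left out. Hex-A (-1.32 (-0.36 with a common median)), Gapdh1 (-0.95 (-0.002 with a common median)) and Pfk (-0.801 (0.041 with a common median)) were lower in the deposited FPKM alone. Among list members with a mean of at least 100 FPKM, those with the smallest differences were the ribosomal genes RpL23A (-0.012), RpL36 (0.011), RpS15Aa (0.008) and RpS27A (0.018), which came to 0.96, 0.99, 0.98 and 0.99 with a common median.

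**Figure D5:**
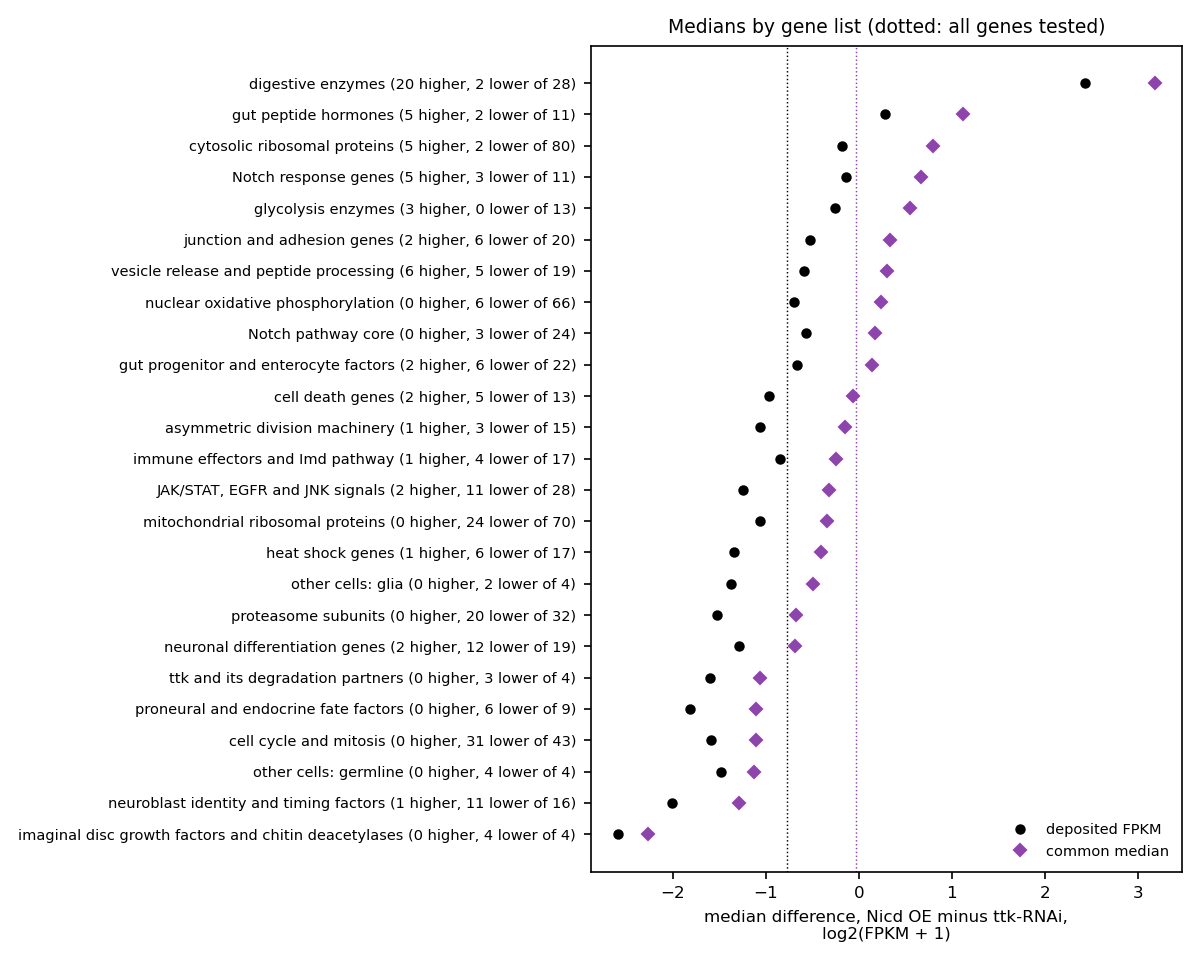
Median difference Nicd OE minus ttk-RNAi in log2(FPKM + 1) over the tested members of each gene list (x axis), from the deposited FPKM (circles) and with a common median (diamonds); dotted lines are the medians of all tested genes. The counts of members called higher or lower with both scalings stand beside each list; digestive enzymes lie farthest to the right and imaginal disc growth factors, whose 4 members passed the filter through ttk-RNAi alone, farthest to the left.

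The labelled cell type was checked against its markers. All 8 markers of stem cells and enteroblasts that could be matched passed the filter, and 2 were higher, E(spl)mbeta-HLH and Stat92E, and 2 lower, peb and klu. The stem cell gene esg was not among the symbols matched to the table and was not analysed here. Enteroendocrine markers were higher in 6 of 12 and lower in 2, pros and Dh31. Their summed level was 3121 to 4688 FPKM in Nicd OE, 948 to 1080.3 FPKM in libraries labelled ttk-RNAi and 12776 to 61846 FPKM in Ctrl. NPF alone had 6827, 55989 and 26068 FPKM in Ctrl, so that sum rests largely on 1 hormone. Enterocyte markers were higher in 8 of 13 and lower in 1, with a summed level of 259 to 379 FPKM in Nicd OE, 139.8 to 226 FPKM in libraries labelled ttk-RNAi and 225 to 578 FPKM in Ctrl. Within that list the higher ones were enzyme genes, Jon99Ci (3.42 (4.23 with a common median)) among them, and Npc2d (1.95 (2.63 with a common median)), of sterol uptake. The amylase-family gene Mal-A1 (1.12 (1.87 with a common median)) and the enterocyte POU factor gene nub (0.33 (0.902 with a common median)) were higher with a common median alone, while the septate junction gene Ssk was lower (-1.901 (-0.95 with a common median)) and mesh and Tsp2A were lower in the deposited FPKM alone (-1.33 for mesh and -1.998 for Tsp2A). Both lists include differentiated cells, and the part of such cells in the differences was not tested.

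Markers of cells outside the gut epithelium were mostly too low to test. Visceral muscle markers passed the filter in 2 of 12, with a sum of 161 to 187 FPKM in Nicd OE, 178 to 201 FPKM in libraries labelled ttk-RNAi and 71.9 to 149.7 FPKM in Ctrl. Mlc1 was lower, with 0.07602, 0.0262 and 0.166 FPKM in Nicd OE and 3.79, 3.91 and 3.59 FPKM in libraries labelled ttk-RNAi. It passed the filter through the libraries labelled ttk-RNAi alone, so its direction was set by the filter. The other tested marker of this list was higher with a common median alone. Haemocyte and fat body markers passed in 3 of 17, with a sum of 1.598 to 2.25 FPKM in Nicd OE and 18.3 to 22.3 FPKM in libraries labelled ttk-RNAi. The scavenger receptor gene Sr-CI was the member that was lower, with 0.2604, 0.438 and 0.866 FPKM in Nicd OE and 12.3, 12.5 and 11.6 FPKM in libraries labelled ttk-RNAi. Its direction was set by the filter, which it passed through the libraries labelled ttk-RNAi alone. Yp3, a yolk protein, was lower in the deposited FPKM alone (-1.37 (-1.06 with a common median)). The 4 tracheal markers all stayed under 1 FPKM in all 6 libraries. Of 11 germline markers 4 passed the filter, 2 of them, piwi and krimp, through the libraries labelled ttk-RNAi alone, so that the direction of these 2 was set by the filter. The sum of the list was 2.84 to 3.44 FPKM in Nicd OE and 15.5 to 16.6 FPKM in libraries labelled ttk-RNAi. The 4 were the piRNA pathway genes AGO3 (-1.78 (-1.15 with a common median)), piwi (-1.57 (-1.23 with a common median)), krimp (-1.39 (-1.1004 with a common median)) and tej (-1.14 (-0.54 with a common median)).

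Glial markers need their own account beside the neural lists. The glutamate transporter gene Eaat1 had 0.491, 0.721 and 0.299 FPKM in Nicd OE, 57.7, 55.1 and 56.7 FPKM in libraries labelled ttk-RNAi and 0.183, 0.114 and 0.196 FPKM in Ctrl, a log2 difference of -5.27 (-4.67 with a common median), and Gs2, a glutamine synthetase, differed by -2.06 (-1.22 with a common median). The defining glial gene repo stayed near 0, with 0.0478, 0.0248 and 0.0392 FPKM in Nicd OE and 0.0848, 0.0483 and 0.0895 FPKM in libraries labelled ttk-RNAi, and so did gcm, with 0.0495, 0 and 0.0811 FPKM in Nicd OE and 0.486, 0.641 and 0.584 FPKM in libraries labelled ttk-RNAi. Of the 6 glial markers listed, 4 passed the filter and 2 were lower, and the sum of the list was 90.9 to 162 FPKM in Nicd OE and 252 to 262 FPKM in libraries labelled ttk-RNAi. Eaat1 passed the filter through the libraries labelled ttk-RNAi alone, so its direction was set by the filter. The part of other cells in the neural and germline differences was not tested.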

How the data were processed

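The authors deposited FPKM, that is, read numbers already divided by exon length and library size. The submitters' processing notes list STAR 2.6.1a, the genome build BDGP6 and DESeq2. How reads were counted, and whether strand was used, is not given in the sources used here. Per the labels' protocols, RNA of sorted cells was amplified before library preparation, so values reflect amplified material. Gene symbols and coordinates came from the BDGP6.54 annotation, which matched 17252 of 17558 identifiers; the other 306 were tested but not named. Every column was matched to a library by its title.

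Read depth was inferred from small FPKM values, which are whole multiples of the FPKM of 1 read: 97.9% to 98.2% of values of up to 20 reads in the 6 libraries were whole within 0.02 reads. For a gene of 1 kb, 3 reads were worth 0.0881 to 0.111 FPKM in Nicd OE and 0.0536 to 0.0587 FPKM in libraries labelled ttk-RNAi, which covers counting error only.

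log2(FPKM + 1) was fitted with limma 3.58.1 in R 4.3.3 as 5 group means over all 15 libraries of the series (10 residual degrees of freedom, variance trend, two-sided), and the contrast Nicd OE minus ttk-RNAi was adjusted by Benjamini-Hochberg over 7300 genes. An adjusted p under 0.05 was a call. All adjusted p-values in the text come from this fit, or from the same fit after columns were scaled to a common median. The fit was tested on simulated data. With 3 libraries against 3, an exact permutation test cannot go below p = 0.1 and was not used. Ctrl levels were not tested.

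Genes were named by rule: the label genes ttk, dpn and N (the fourth, seq, was listed at 0 in all 9 libraries), the 12 largest differences in each direction among genes called with both scalings, with at least 10 FPKM in the higher group and no overlap, up to 4 members per direction of each list, every tested member of the lists of Notch response, Notch pathway, Ttk partners, hormones and gut markers, and 4 list members with small differences. The members and all lists were chosen with earlier results of these data known.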

Additional observations from a re-analysis of the deposited data

How the results depend on the processing

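The counts of called genes depended on the scaling. Against 548 higher and 4272 lower genes in the deposited FPKM, there were 1974 higher and 2101 lower with a common median, 2080 and 1994 with quantile normalization, 1826 and 2234 with median-of-ratios scaling, and 892 and 2684 with columns scaled to a common sum. Added after seeing the data, the common median gave 2490 higher and 2546 lower genes in a fit of the 6 libraries, and 1850 and 2057 without Nicd OE replicate 3. A difference of at least 1 on the log2 scale left 314 higher and 2774 lower genes. A pseudocount of 0.1 gave 550 and 4260 genes and a pseudocount of 5 gave 522 and 4185. Without a filter on low values 721 and 6140 were called, and with the 6 libraries fitted alone 683 and 4683. Leaving out each of the 6 libraries in turn gave 445 to 545 higher and 3553 to 4593 lower genes. Replicate numbers did not pair the samples: deviations of same-numbered libraries correlated at -0.133, 0.160 and -0.148. A replicate block gave 548 higher and 4256 lower genes, and 662 and 4655 in a fit of the 6 libraries.

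Of 258 genes named in the text and tested, 234 were called in the deposited FPKM, and 215 of these kept the call in every omission of a library. Many of them were named because they were called, so these counts do not measure how well calls hold. Of all 7300 tested genes, 66.0% were called. Some single differences changed sign with the scaling, and those called before or after the change are listed. With a common median, 10 such differences turned positive (7 more, called with neither scaling, did so too): Bub1 0.57, E(spl)mgamma-HLH 0.018, Nct 0.53, O-fut1 0.75, Pfk 0.041, Sox100B 0.24, Su(dx) 0.11, aph-1 0.87, mam 0.48 and numb 0.84. With quantile normalization, 11 differences turned positive: Bub1 0.56, E(spl)mdelta-HLH 0.20, Nct 0.53, O-fut1 0.64, Pfk 0.0082, Sox100B 0.16, Su(dx) 0.081, aph-1 0.74, mam 0.47, numb 0.72 and pen-2 0.73. With median-of-ratios scaling, 6 differences turned positive: Bub1 0.52, O-fut1 0.69, Sox100B 0.17, Su(dx) 0.048, aph-1 0.81 and numb 0.78. With a common median and the 6 libraries alone, 15 differences turned positive: Bub1 0.56, E(spl)m6-BFM 0.66, E(spl)mgamma-HLH 0.018, H 0.44, N 0.46, Nct 0.52, O-fut1 0.75, Pfk 0.041, Sox100B 0.24, Su(dx) 0.10, aph-1 0.86, aux 0.47, lqf 0.43, mam 0.47 and numb 0.83. With a common median and without Nicd OE replicate 3, 11 differences turned positive: Bub1 0.62, E(spl)mgamma-HLH 0.096, Gapdh1 0.065, LysX 0.22, Nedd4 0.10, Pfk 0.0037, Sox100B 0.30, Su(dx) 0.30, aph-1 0.78, mam 0.61 and numb 1.01. The lower share of reads assigned to genes in Nicd OE moves with these changes of scale, and its cause was not tested. Genes with few reads in Nicd OE, such as CG12523 with 2 reads over 3 libraries, rest on the libraries labelled ttk-RNAi.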

Other observations

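Several gene families that were picked after the values had been seen are given as counts of genes called with both scalings, to be read against 7.51% higher and 28.8% lower of all tested genes. Cytochrome P450 genes, which oxidize toxins and hormones, were higher in 15 and lower in 6 of 34 tested. All 6 lower genes passed the filter through the libraries labelled ttk-RNAi alone, and 4 of the 15 higher through Nicd OE alone. The direction of these genes was set by the filter. Cyp9f2 had 36.8, 42.6 and 41.6 FPKM in Nicd OE, 4.93, 4.52 and 5.18 FPKM in libraries labelled ttk-RNAi and 39.9, 45.04 and 36.5 FPKM in Ctrl, a log2 difference of 2.81 (3.71 with a common median). Cyp12a4 and Cyp6d5 differed by 2.49 (3.297 with a common median) for Cyp12a4 and 2.199 (3.02 with a common median) for Cyp6d5. Cyp6a17 went the other way, with 0, 0 and 0.016997 FPKM in Nicd OE, 9.79, 11.9 and 11.3 FPKM in libraries labelled ttk-RNAi and 7.502, 2.88 and 4.57 FPKM in Ctrl. Of 5 tested metallothionein genes, 2 were higher: MtnC had 10.96, 8.99 and 9.53 FPKM in Nicd OE and 0.511, 0.2698 and 0.8001 FPKM in libraries labelled ttk-RNAi, and MtnA is described above. MtnC passed the filter through Nicd OE alone. Cyp4g15, Cyp12c1 and Cyp301a1 were also lower, with -1.22, -1.07 and -1.02. Of 29 tested glutathione S-transferase genes 3 were higher, GstD4 (1.46), GstE3 (1.27) and GstT4 (0.82), and 3 lower, GstD9 (-2.56) and GstE6 (-1.96) among them, while GstD2 (-2.06 (-1.09 with a common median)) and GstD5 (-2.003 (-1.09 with a common median)) were lower in the deposited FPKM alone.

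Long non-coding RNAs were lower in 98 and higher in 23 of 202 tested. Of the 98, 67 passed the filter through the libraries labelled ttk-RNAi alone, and of the 23, 12 passed it through Nicd OE alone. The direction of these genes was set by the filter. lncRNA:CR45967 had 0.115, 0.119 and 0.283 FPKM in Nicd OE, 44.4, 47.6 and 42.1 FPKM in libraries labelled ttk-RNAi and 0.587, 0.3199 and 0.594 FPKM in Ctrl. lncRNA:CR44538 was higher in Nicd OE than in both other groups, with 75.2, 40.4 and 47.8 FPKM in Nicd OE, 5.35, 6.09 and 5.75 FPKM in libraries labelled ttk-RNAi and 2.16, 0.898 and 2.32 FPKM in Ctrl. lncRNA:CR45625 had 3.26, 6.26 and 6.197 FPKM in Nicd OE and 0.0869, 0 and 0.0397 FPKM in libraries labelled ttk-RNAi, and lncRNA:CR43264 had 12.1, 11.2 and 13.4 FPKM in Nicd OE and 361, 293 and 294 FPKM in libraries labelled ttk-RNAi. lncRNA:CR43148 and lncRNA:CR43643 were higher by 1.57 and 1.48.

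Nucleoporin genes were lower in 11 of 16 tested and higher in 0, among them Nup35 (-2.24 (-1.86 with a common median)), Nup50 (-1.796 (-1.04 with a common median)), Nup75 (-1.76) and Nup54 (-1.62). tRNA synthetase genes were lower in 6 of 15 and higher in 0, led by SerRS (-2.66), TrpRS (-2.06), HisRS (-1.83) and LysRS (-1.79). Tetraspanin genes were lower in 7 of 23 and higher in 0, a lower share near that of all tested genes, and Tsp42Ek and Tsp47F differed by -2.47 and -2.203. Of 16 tested genes of the vacuolar ATPase, the proton pump of acidic compartments, 3 were higher and 2 lower. The accessory subunit gene VhaAC45RP had 1.07, 0.932 and 1.599 FPKM in Nicd OE, 126, 128 and 126 FPKM in libraries labelled ttk-RNAi and 3.18, 3.29 and 5.64 FPKM in Ctrl, while Vha100-2 had 38.6, 42.5 and 43.8 FPKM in Nicd OE and 20.3, 19.7 and 18.9 FPKM in libraries labelled ttk-RNAi. VhaM9.7-c (1.0003 (1.84 with a common median)) and VhaPPA1-1 (0.49 (1.46 with a common median)) were the other higher members, VhaM9.7-a (-1.92 (-0.997 with a common median)) was lower, and Vha55 (-1.05 (-0.077 with a common median)) was lower in the deposited FPKM alone. In this family 12 genes were higher with a common median.

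Single libraries of Nicd OE differed from their group for a few genes. Among genes that reached 10 FPKM in a Nicd OE library, replicate 3 was at least 10 times above both others for 5 and 10 times below both for 2. Replicate 1 was above both for 4 and below for 0, and replicate 2 above for 0 and below for 4. Nap1, a histone chaperone, had 0.272, 0.305 and 26.5 FPKM in Nicd OE, 40.4, 28.01 and 31.3 FPKM in libraries labelled ttk-RNAi and 34.98, 22.6 and 35.1 FPKM in Ctrl, and 73.01% of its exon bases are shared with another gene. Orc6, of the replication origin complex, had 1.22, 1.41 and 16.4 FPKM in Nicd OE and 28.02, 27.3 and 25.6 FPKM in libraries labelled ttk-RNAi, and lncRNA:CR45378 had 0.143, 0.088997 and 31.1 FPKM in Nicd OE and 6.16, 7.16 and 6.98 FPKM in libraries labelled ttk-RNAi. For these 3 genes the cause of the split within Nicd OE was not tested.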
